A study of Mus musculus with 4 samples.

Results

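The genes that make, break down and sense γ-aminobutyric acid (GABA) in the pancreatic islet were followed across 2 glucose concentrations. The 7 genes were taken by symbol from the 24012 symbols of the deposited table: *Gad1* and *Gad2*, *Abat* and *Aldh5a1*, *Gabbr1* and *Gabbr2*, and *Gabra4*. Of these, 6 symbols had a single entry, and *Abat* had 2 entries with identical values, which were used once. Whole islets of male C57bl6 mice of 3 months of age, pooled and cultured overnight at 11 mM glucose, were starved for 2 h at 2.8 mM glucose and then kept at 2.8 mM (LoGlu) or 16.8 mM glucose (HiGlu), with 2 RNA-seq libraries at each concentration. Both treatments lasted 12 h by the design text, but the labels of the libraries put LoGlu at 2 h and HiGlu at 12 h, so a difference in time cannot be told apart from one in glucose should the labels hold. As the islets came from a shared pool, the p-values measure the spread between libraries and not between mice.

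GABA is made from glutamate by the glutamate decarboxylases GAD67 (*Gad1*) and GAD65 (*Gad2*). It is broken down in the mitochondria by GABA transaminase (*Abat*) and succinate semialdehyde dehydrogenase (*Aldh5a1*), which return its carbon to the citric acid cycle as succinate. Beta cells are known to make GABA, and islet cells sense it through GABA-A receptors, which are chloride channels assembled from subunits such as that encoded by *Gabra4*, and through the GABA-B receptor, a G protein-coupled receptor that signals as a dimer of the subunits encoded by *Gabbr1* and *Gabbr2*.

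At 16.8 mM glucose *Gabbr2* rose about 2.46-fold and *Aldh5a1* fell by 24.8%, and these were the only members to pass the test. *Gabbr2* met the minimum for this test, a mean of 0.1 RPKM over the 4 libraries, only through its 16.8 mM libraries. Its 2.8 mM mean was 0.0902 RPKM. *Gad1* and *Gabbr1* did not pass in either direction, and *Abat*, at 1.32 times its 2.8 mM level, missed the threshold at an adjusted p of 0.0619 (limma) but passed when reads reconstructed from the table were tested instead with voom, a weighting of counts by their precision within limma. *Gad2* and *Gabra4* were near the bottom of the range of detection at both concentrations and were below the minimum for testing in limma. In voom *Gabra4* was tested and did not pass, and *Gad2* was not tested. Thus 2 of the 5 members tested were called, 1 in each direction, beside 29.8% of all 16234 transcripts tested in the same fit (8.68% higher and 21.2% lower at 16.8 mM glucose). In 6 of the 7 members, *Gad2* being the exception, the libraries of the 2 groups did not overlap, which was also so for 71.3% of all transcripts tested (22.1% higher and 49.2% lower). Shares of this size among so few genes do not set the members apart from other transcripts.

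The values are reads scaled to gene length and library size (RPKM). For most low values of the short coding entries checked, the kilobases were those of the genomic span with its introns. The same was taken to hold for longer genes. On that reading, long genes with small exons have low values that still rest on many reads. The libraries held between 50800000 and 60710000 reads as reconstructed from the table. The median transcript changed by −0.12 on the log2 scale, and 1409 transcripts were called higher against 3436 lower at 16.8 mM glucose. This split moved to 2811 against 3892 under quantile normalization, 3043 against 3517 under median centring, and 2633 against 4028 when library size was counted without the 10 highest transcripts.

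In whole islets fewer cells of a type and less RNA per cell cannot be told apart, so markers of the cell types were measured as well. All 4 endocrine types were present. The summed level of 6 beta cell markers was 22898 and 20550 RPKM at 2.8 mM and 43707 and 40932 RPKM at 16.8 mM glucose. Most of this sum was *Ins2*, at 18136 and 15943 RPKM against 30018 and 27396 RPKM. Limma called 5 of 6 higher, all but *Slc2a2* (limma adjusted p = 0.104), and voom called 6 of 6. Of all transcripts tested, 8.68% were called higher in limma and 13.5% in voom. None of 4 alpha, 3 delta and 1 PP cell markers was called in limma, and voom called *Sst* higher. The 5 acinar markers summed to 59.8 and 173 RPKM at 2.8 mM glucose and to 146 and 320 RPKM at 16.8 mM glucose, higher in the second library of each group; none was called in limma and all 5 were called higher on reconstructed reads. None of 3 duct, 3 endothelial, 2 macrophage and 3 stromal markers tested in limma was called, but on reads voom called 1 duct marker (*Krt19*) and 2 endothelial markers (*Pecam1* and *Cdh5*) higher. The glial genes *Sox10* and *Gfap* and the neuronal *Rbfox3* were at most 0.0815 RPKM in any library. *Rbfox3* spans 420 kb, so its values stand for about 290 and 210 reads in the LoGlu libraries against 151 and 124 in HiGlu, and it was called lower on reads (log2 fold change −0.86 ± 0.20 SE; voom adjusted p = 0.00195). The part of these shifts in the values of the GABA genes was not tested.

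*Gad1* was by far the more abundant decarboxylase gene. *Gad1* spans chr2:70400099-70440071 on the plus strand of NCBI build 37, with 17 exons, and its level was 1.14 and 1.35 RPKM in the 2.8 mM libraries and 1.06 and 1.13 RPKM in the 16.8 mM libraries. The groups did not overlap, but the upper 16.8 mM library lay just under the lower 2.8 mM library. The means were 1.24 ± 0.143 and 1.10 ± 0.0501 RPKM (SD, n = 2 each). The log2 fold change of −0.16 ± 0.10 (SE) had an adjusted p of 0.281 in limma's moderated test and a 95% confidence interval from −0.44 to 0.11, and it lay 0.04 below the median of all transcripts. A moderate fall and a small rise of *Gad1* are thus both within the interval.

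*Gad2*, at chr2:22477725-22549394 on the plus strand with 16 exons, was listed at 0.006 and 0.0048 RPKM at 2.8 mM glucose and at 0.0055 and 0.003 RPKM at 16.8 mM glucose. These values stand for about 25, 18, 24 and 11 reads over the whole gene, introns included. The groups overlapped, and the exact Poisson intervals of the lowest and highest library, 5.49 to 19.7 and 16.2 to 36.9 reads, overlapped as well. *Gad2* was under the minimum of the limma fit and of voom, so its change was tested in neither, and how large a change could be seen was not tested. *Gad1* held 107 and 155 times as many reads as *Gad2* at 2.8 mM and 107 and 209 times as many at 16.8 mM glucose, so *Gad1* carried nearly all decarboxylase reads in each library.

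**Figure D1:**
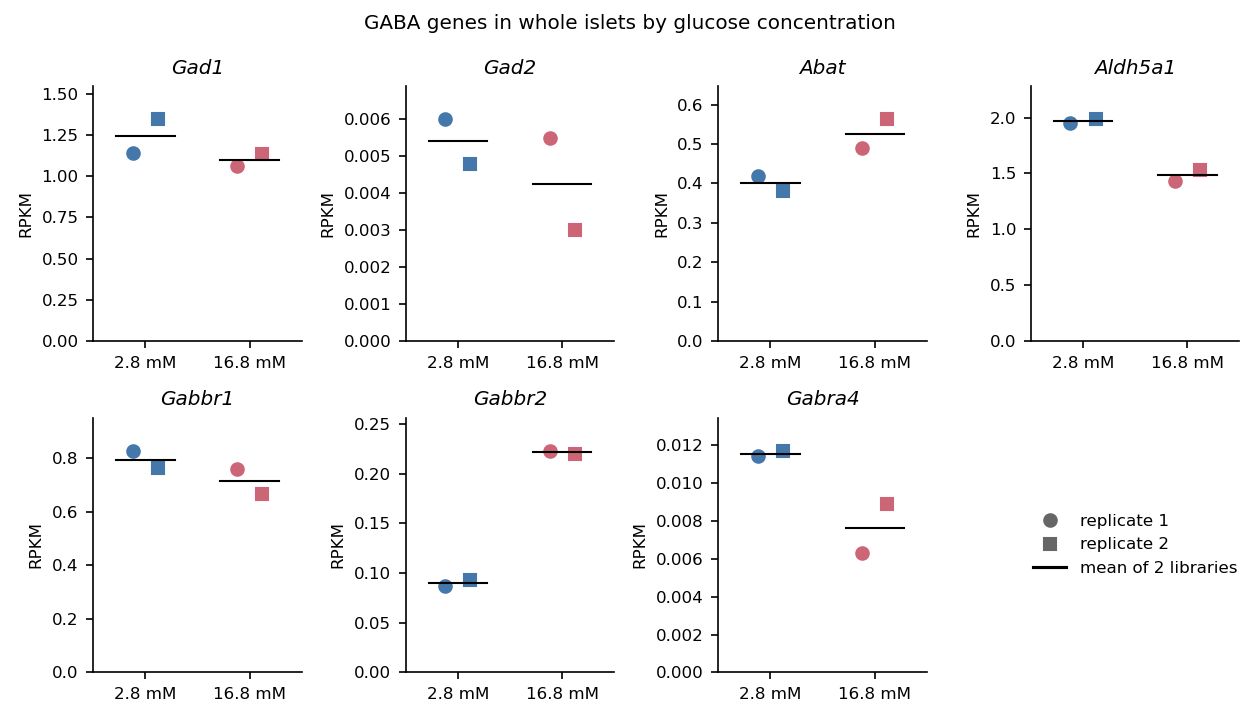
RPKM of the 7 GABA genes in each library (circles, replicate 1; squares, replicate 2) at 2.8 mM (blue) and 16.8 mM glucose (red), with the mean of the 2 libraries as a line; each panel has its own axis from 0. The 16.8 mM libraries of *Gabbr2* (0.223 and 0.220 RPKM) lie far above its 2.8 mM libraries (0.0873 and 0.0931 RPKM), *Aldh5a1* lies lower at 16.8 mM glucose, and the groups overlap only for *Gad2*.

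The 2 genes of GABA breakdown had changes of opposite sign, of which that of *Aldh5a1* passed the test. *Abat*, at chr16:8513522-8621661 on the plus strand with 16 exons, measured 0.419 and 0.380 RPKM at 2.8 mM glucose and 0.490 and 0.563 RPKM at 16.8 mM glucose. Both 16.8 mM libraries were above both 2.8 mM libraries. The means of 0.3998 ± 0.0275 and 0.526 ± 0.0518 RPKM (SD, n = 2 each) gave a log2 fold change of 0.32 ± 0.09 (SE), with a 95% confidence interval from 0.08 to 0.57. Its limma adjusted p was 0.0619. When the values were turned back into reads (2650 and 2137 against 3214 and 3092) and tested with voom, the log2 fold change was 0.39 ± 0.10 (SE) with an adjusted p of 0.00518, beside 42.3% of all 17458 transcripts called in that fit (13.5% higher and 28.8% lower).

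*Aldh5a1*, the enzyme gene that follows *Abat* in the pathway, spans chr13:24999448-25029530 on the minus strand with 10 exons. Its level was 1.95 and 1.98 RPKM at 2.8 mM glucose and 1.43 and 1.53 RPKM at 16.8 mM glucose. The gap between the groups was wide beside the distance between libraries of a group. Means of 1.97 ± 0.0218 and 1.48 ± 0.0660 RPKM (SD, n = 2 each) corresponded to a log2 fold change of −0.39 ± 0.08 (SE; limma adjusted p = 0.0285), which is 0.26 below the median of all transcripts. This call was lost under quantile normalization (adjusted p = 0.0771), under median centring (0.0736), and without any one of the 4 libraries (0.0926 to 0.129).

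The reads of *Aldh5a1* could not be separated from those of a non-coding gene on the other strand. *4932702P03Rik*, a processed transcript at chr13:24997462-25006141 on the plus strand, shares 6.69 kb with the 3′ part of *Aldh5a1*, and the library kit does not mark the strand. It was listed at 6.60 and 6.81 RPKM at 2.8 mM glucose and at 4.77 and 5.23 RPKM at 16.8 mM glucose, about 3351, 3073, 2514 and 2305 reads, which equals 97.5%, 99.1%, 95.9% and 98.7% of the number of reads of *Aldh5a1* in the same libraries. Its log2 fold change was −0.42 ± 0.10 (SE; limma adjusted p = 0.0380), close to that of *Aldh5a1*. A second overlapping entry, the lincRNA *9330162012Rik*, shares 0.261 kb with the 5′ end of *Aldh5a1* and had between 9.03% and 11.0% as many reads, with a log2 fold change of −0.30 ± 0.11 (SE; limma adjusted p = 0.0997). Which gene of each pair gave the reads was not tested. Annotated genes without listed values overlap other members. On the other strand, *Gm9851* shares 2.315 kb with *Abat* and *1500002O10Rik* shares 1.316 kb with *Gad1*. The miRNA *AL928693.1* shares 0.095 kb with *Gad2*. The part of these genes in the reads was not tested. The ratio of *Abat* to *Aldh5a1* reads was 0.771 and 0.689 at 2.8 mM glucose and 1.23 and 1.32 at 16.8 mM glucose. The ratios of the 2 groups did not overlap, but with 2 libraries against 2 the exact two-sided permutation test cannot go below p = 0.333, which is the value obtained.

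Of the 2 genes for GABA-B receptor subunits, 1 was called. *Gabbr1*, whose product binds GABA, lies at chr17:37182911-37212012 on the plus strand with 23 exons and measured 0.828 and 0.762 RPKM at 2.8 mM glucose and 0.760 and 0.667 RPKM at 16.8 mM glucose. The upper 16.8 mM library was only just under the lower 2.8 mM library. Its log2 fold change was −0.14 ± 0.09 (SE; limma adjusted p = 0.300), with a 95% confidence interval from −0.39 to 0.11, and it stood 0.01 below the median of all transcripts.

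*Gabbr2*, whose product couples the dimer to G proteins, is the longest member, at chr4:46675190-47004745 on the minus strand, a span of 330 kb with 19 exons that make up 1.74% of it. It was listed at 0.0873 and 0.0931 RPKM at 2.8 mM glucose and at 0.223 and 0.220 RPKM at 16.8 mM glucose, about 1682, 1594, 4466 and 3690 reads. Each 16.8 mM library stood well above either 2.8 mM library, and the libraries within a group were close. The means were 0.0902 ± 0.00410 and 0.222 ± 0.00198 RPKM (SD, n = 2 each), a 2.46-fold difference. On the log2(RPKM + 0.1) scale, where the added 0.1 shrinks the change of a gene at this level, the log2 fold change was 0.76 ± 0.08 (SE; limma adjusted p = 0.00845), whereas on reconstructed reads it was 1.30 ± 0.10 (SE, voom). No other annotated gene overlaps *Gabbr2*. Whether the added reads lay in exons or in introns cannot be read from the table, and the limma call was lost without the second 16.8 mM library (adjusted p = 0.0509).

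The 2 subunit genes were also compared within each library. *Gabbr2* held 1.19 and 1.38 times as many reads as *Gabbr1* at 2.8 mM glucose and 3.33 and 3.74 times as many at 16.8 mM glucose. These are reads not divided by length, and *Gabbr2* is much the longer gene. Per kilobase of span *Gabbr2* was below *Gabbr1* in every library. Per kilobase of exon, as if every read were exonic, the ratios were 1.09 and 1.27 at 2.8 mM and 3.04 and 3.42 at 16.8 mM glucose. Exons make up 1.74% of *Gabbr2* but 18.0% of *Gabbr1*, and the share of intronic reads is not known for either. These ratios thus need not be those of the mRNAs. The groups did not overlap, and the mean log2 ratio was 1.46 higher at 16.8 mM glucose (exact two-sided permutation p = 0.333, the smallest that 2 against 2 libraries allow).

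The stretches of DNA upstream of 2 members are shown because these were the members called in limma, and the stretches differ in base composition. They are given 5′ to 3′ on the minus strand, from the RefSeq promoter table placed on NCBI build 37, without the bases that the annotation assigns to an exon, and capitals mark CpG dinucleotides. *Gabbr2* is read at chr4:47004746-47004836 and *Aldh5a1* at chr13:25029658-25029780.
Gabbr2: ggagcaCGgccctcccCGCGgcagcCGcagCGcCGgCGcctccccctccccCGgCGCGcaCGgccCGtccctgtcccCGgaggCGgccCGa
Aldh5a1: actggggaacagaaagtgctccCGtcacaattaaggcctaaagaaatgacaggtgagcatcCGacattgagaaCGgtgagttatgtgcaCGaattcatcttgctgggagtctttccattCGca
The *Gabbr2* stretch of 91 bases holds 15 CpGs and is 85.7% G or C, and the *Aldh5a1* stretch of 123 bases holds 5 CpGs and is 47.2% G or C. The stretches are not alike in position. The 159 bases left out for *Gabbr2* are of its own exon, and the 127 left out for *Aldh5a1* are of an exon of *9330162012Rik*. With these bases, *Gabbr2* is 80.8% and *Aldh5a1* 57.2% G or C. Over the full 250 bases before the RefSeq start, *Gabbr2* has 37 CpGs, more than 97.8% of the 32851 mouse promoters in the table, *Aldh5a1* and *Gad1* have 17 each, *Gabbr1* 16, *Gad2* 13 and *Gabra4* 12, against a median of 6. These 6 promoters are thus all richer in CpG than the median, whether or not the gene changed. Of 3 motifs searched on both strands, CACGTG is in none of the 6 and in 6.02% of all promoters, TGACG is in those of *Aldh5a1* and *Gad2* and in 17.8% of all, and TATAAA is in that of *Gad1* and in 12.4% of all.

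*Gabra4*, the GABA-A receptor α subunit gene among the members, lies at chr5:71960973-72049547 on the minus strand with 9 exons. It was listed at 0.0114 and 0.0117 RPKM at 2.8 mM glucose and at 0.0063 and 0.0089 RPKM at 16.8 mM glucose, about 59, 54, 34 and 40 reads. Both 16.8 mM libraries were lower. The gene was under the minimum of 0.1 RPKM for the limma fit, and in the fit on reconstructed reads its log2 fold change was −0.63 ± 0.31 (SE), with a voom adjusted p of 0.108 and a 95% confidence interval from −1.28 to 0.01. The data thus allow a marked fall as well as no change.

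**Figure D2:**
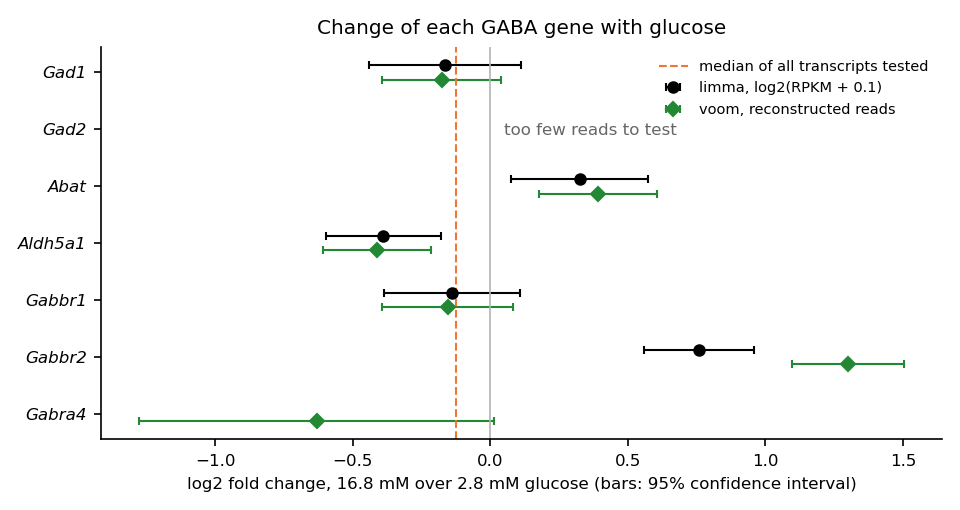
Log2 fold change of each GABA gene at 16.8 mM over 2.8 mM glucose with its 95% confidence interval, from limma on log2(RPKM + 0.1) (black) and from voom on reconstructed reads (green); the dashed line is the median of all transcripts tested in limma, −0.12. The intervals of *Gabbr2* and *Abat* lie above 0, that of *Aldh5a1* lies below it, and those of *Gad1*, *Gabbr1* and *Gabra4* include it.

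The order of the members depended on the length by which reads are divided. Per kilobase of genomic span, as deposited, the mean over 4 libraries ran from *Aldh5a1* (1.73 RPKM) through *Gad1* (1.17), *Gabbr1* (0.754), *Abat* (0.463) and *Gabbr2* (0.156) to *Gabra4* (0.00958) and *Gad2* (0.00483), and no neighbours in this order overlapped in their library values. Exons make up 18.8% of *Aldh5a1* and 18.0% of *Gabbr1* but 4.29% of *Abat*, so the same reads were also divided by exon length, as if every read had come from an exon. This gives an upper limit of the exonic level. On that scale *Gad1* had the highest mean level (14.0 RPKM), followed by *Abat* (10.8), *Aldh5a1* (9.19), *Gabbr2* (8.96) and *Gabbr1* (4.18), and *Gabra4* (0.206) and *Gad2* (0.0602) stayed at the bottom. *Abat*, *Aldh5a1* and *Gabbr2* overlapped one another in their library values there, and the lowest library of *Gad1* (12.7 RPKM) lay below the highest of *Abat* (13.1) and of *Gabbr2* (12.8). The order also differed between concentrations, as the mean of *Gabbr2* was below those of *Abat* and *Aldh5a1* at 2.8 mM glucose (5.18 against 9.32 and 10.5 RPKM) and above them at 16.8 mM (12.7 against 12.3 and 7.89 RPKM). Library values of *Gabbr2* and *Abat* overlapped at 16.8 mM glucose.

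**Figure D3:**
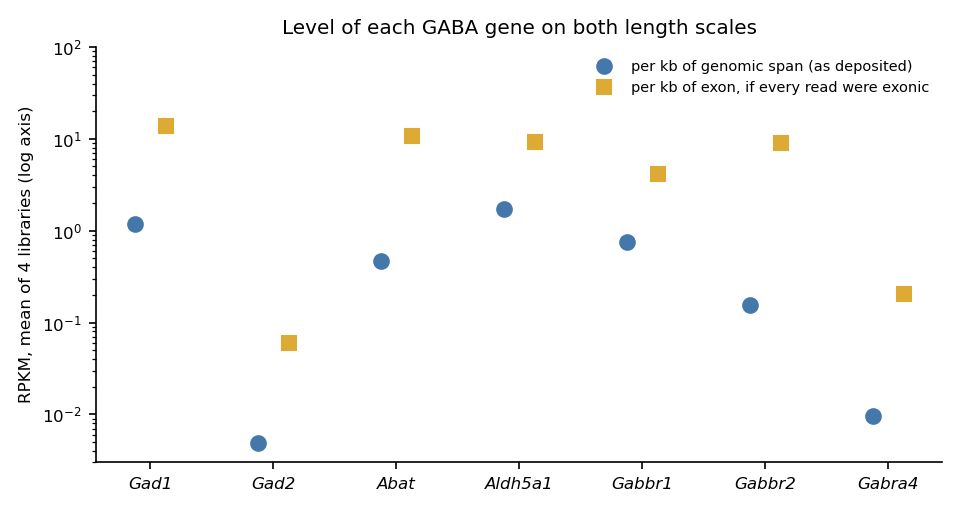
Mean level of each GABA gene over the 4 libraries, as RPKM on a log axis, per kilobase of genomic span as deposited (blue circles) and per kilobase of exon if every read were exonic (yellow squares). *Gad2* and *Gabra4* lie far below the other 5 genes on both scales, while *Abat* and *Gabbr2* move up most between the scales.

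*Gad1* and *Gad2* were each set beside the transcripts with the most similar course over the 4 libraries. Among 9085 transcripts within 4-fold of the mean level of *Gad1*, *Cdk18*, *Fndc5* and *B930003M22Rik* were nearest. Their root mean square differences were 0.03, 0.03 and 0.04 on the centred log2(RPKM + 0.1) scale. Each was highest in the second 2.8 mM library, as *Gad1* was, which the choice by likeness over these libraries favours. For *Gad2* the nearest of 4702 were *Rgs13*, *Slc1a6* and *Fam196b*, but all of these stood at about 0.01 RPKM or less, where the added 0.1 leaves little course to compare.

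Of 52 further genes of the GABA pathway, 31 were tested and 10 were called, 5 higher and 5 lower at 16.8 mM glucose. This share, 32.3%, was near the 29.8% of all transcripts, and the median log2 fold change was −0.10 for the list and −0.12 for all transcripts. On reconstructed reads voom tested 38 of the genes and called 9 higher and 10 lower, beside its 42.3% of all transcripts. The genes that make or use glutamate, the substrate of GAD, held the largest changes, as 1 of 5 rose and 2 of 5 fell. *Glul*, glutamine synthetase, which uses glutamate, fell from 37.7 and 39.5 to 13.6 and 14.7 RPKM (log2 fold change −1.44 ± 0.10 SE; limma adjusted p = 0.00579). *Got1*, the cytosolic aspartate aminotransferase, fell from 2.82 and 2.61 to 1.20 and 1.18 RPKM (−1.13 ± 0.08 SE; adjusted p = 0.00597, limma). *Gls2*, a glutaminase that releases glutamate from glutamine, rose from 0.215 and 0.264 to 0.393 and 0.393 RPKM (0.54 ± 0.10 SE; adjusted p = 0.0220, limma). *Glud1* and *Got2* did not pass in limma or voom.

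Genes of other routes to GABA and of the cofactor of GAD gave 2 rises and 1 fall among 5 tested in limma. Of all transcripts tested there, 8.68% were called higher and 21.2% lower. *Odc1*, the first enzyme of polyamine synthesis, and *Maob*, a monoamine oxidase of the route from putrescine to GABA, rose with log2 fold changes of 0.55 and 0.53 (limma adjusted p = 0.0249 and 0.0209). *Pdxk*, which makes the pyridoxal phosphate used by GAD and GABA transaminase, had a log2 fold change of −0.49 (limma adjusted p = 0.015). At the entry of succinate into the citric acid cycle, *Suclg2*, a succinyl-CoA synthetase subunit, fell by 0.57 on the log2 scale (limma adjusted p = 0.0175) and the other 5 of 6 genes, the succinate dehydrogenase subunits *Sdha* and *Sdhb* among them, did not pass in limma. On reconstructed reads *Sdha* and *Sdhb* were called lower as well (voom log2 fold changes −0.28 and −0.36, adjusted p = 0.0169 and 0.00882). Neither of the 2 palmitoyltransferases that act on GAD65 passed in limma or voom.

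Among receptor partners, 2 of 9 tested in limma rose and 1 fell, while voom on reconstructed reads called 6 of 11 higher and 1 lower. Of all transcripts tested, limma called 8.68% higher and 21.2% lower, and voom 13.5% higher and 28.8% lower. *Gabarapl1*, of the GABA-A receptor-associated protein family that also serves autophagy, fell from 14.2 and 11.9 to 8.33 and 7.50 RPKM (log2 fold change −0.71 ± 0.13 SE; limma adjusted p = 0.0241). *Nlgn2*, the neuroligin of inhibitory synapses, and *Trak1*, a trafficking adaptor, rose with log2 fold changes of 0.41 and 0.37 (limma adjusted p = 0.0497 and 0.0274). The auxiliary GABA-B subunit genes *Kctd12* and *Kctd12b* had log2 fold changes of 0.45 and 0.55 with limma adjusted p of 0.0511 and 0.0768, and passed in voom (0.00436 and 0.00281); both were above their 2.8 mM libraries in each 16.8 mM library. *Gabarapl2* and the auxiliary subunit gene *Kctd8* were also called higher on reads (voom adjusted p = 0.00749 and 0.0342).

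Of 17 other GABA-A subunit genes, 2 reached the minimum for testing in limma and neither was called. On reconstructed reads voom tested 7 and called 2 lower, *Gabrb1* and *Gabrg3*, beside 28.8% of all transcripts called lower in that fit. *Gabrb1*, a β subunit gene, measured 0.261 and 0.238 RPKM at 2.8 mM glucose and 0.203 and 0.181 RPKM at 16.8 mM glucose (adjusted p = 0.0815 in limma and 0.00433 in voom). *Gabrg3*, a long γ subunit gene, measured 0.0337 and 0.0324 RPKM against 0.02 and 0.018 RPKM, about 1321, 1129, 814 and 613 reads, and its log2 fold change on reads was −0.80 ± 0.12 (SE; voom adjusted p = 3.8e-05). *Gabrr3*, the other gene tested in limma, measured 0.165 and 0.162 against 0.151 and 0.125 RPKM (adjusted p = 0.265 in limma and 0.190 in voom). The groups of these genes did not overlap, with lower values at 16.8 mM glucose, as was the case for 49.2% of all transcripts tested in limma. The remaining subunit genes were under the limma minimum and were not called in voom where it tested them, with *Gabra6* listed at 0 in every library. The 4 GABA transporter genes examined, the vesicular *Slc32a1* and the plasma membrane carriers *Slc6a11*, *Slc6a12* and *Slc6a13*, were also under the minimum, with at most 0.0155 RPKM and about 21 reads in any library. Of the chloride carrier genes neither passed in limma, but *Slc12a2*, a carrier that brings chloride into cells, was lower at 16.8 mM glucose in voom (log2 fold change −0.38 ± 0.12 SE; adjusted p = 0.0191), and *Slc12a5* passed in neither.

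**Figure D4:**
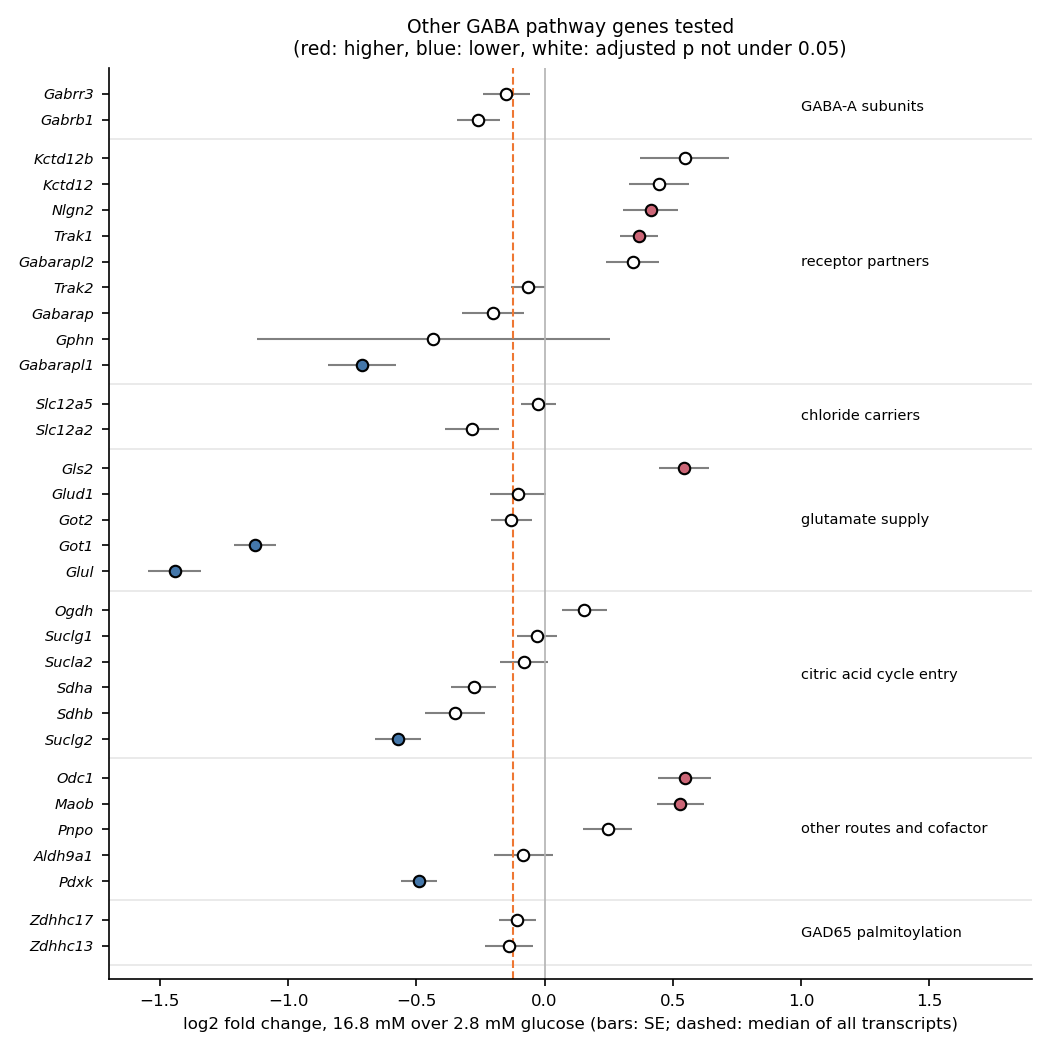
Log2 fold change at 16.8 mM over 2.8 mM glucose (points) with its SE (bars) for the 31 other GABA pathway genes tested, by group; red, called higher; blue, called lower; white, not called; the dashed line is the median of all transcripts. *Glul* and *Got1* lie farthest to the left, at −1.44 and −1.13. The group labelled glutamate supply also holds *Glul*, which uses glutamate. Called genes lie on both sides of 0 in that group, among the receptor partners and among the genes of other routes and the cofactor.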

How the data were processed

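RNA-seq of whole islets was analysed in 4 libraries, 2 at each glucose concentration. The deposited table holds RPKM values that the authors computed for 33923 transcript entries; the submitters' processing notes name STAR, bedtools, DESeq and the mm9 genome build (NCBI build 37), and the study's methods describe these for its alpha and beta cell libraries, so the steps for the islet libraries are not given in the sources used here. Replicates were not pooled, and no counts were used for the main test. Depth was read from the RPKM steps of miRNA hairpins, where 98.7% to 98.9% of low values were whole reads within 0.05 read. For short RefSeq coding entries, all with a shorter span than any member, 73.9% to 74.1% of low values were whole over the genomic span. Over the exons 18.5% to 20.3% were. Genes as long as the members were not checked in this way, and levels were taken to include introns there too. In 214 of 244 genes inside an intron the host held at least about as many reads. As these reads were rebuilt with the span, that count cannot decide the length used. Reads were rebuilt with GENCODE M1 spans, matched for 87.3% of transcripts; they are approximate, and their intervals cover counting error only.

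Identical entries were used once (28047 left). The test was limma 3.58.1 (R 4.3.3) on log2(RPKM + 0.1) for transcripts averaging 0.1 RPKM or more, with a variance trend and Benjamini-Hochberg adjustment over all tested, called at 0.05. Voom used reconstructed reads with a mean of at least 20. On simulated data, with 200 changed among 14215 transcripts, 93.5% were recovered at a log2 change of 1, and 14.6% of calls were false. The simulation gave every transcript the same spread between libraries and changed few transcripts, in random directions. Here 4845 were called, most of them lower, so these rates need not hold for this comparison. The members and lists were chosen with earlier results of these data known. Named genes are the members, the called list genes with the 5 largest rises and falls, transporters and tested GABA-A subunits, genes overlapping a member, the 3 transcripts most like *Gad1* and *Gad2*, and markers; genes called by voom alone and other uncalled genes were added where a group was described. Promoters are from RefSeq (GRCm38.p6), with an entry for 6 of the 7 members. Some genes of the lists are not reported here.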

Additional observations from a re-analysis of the deposited data

How the results depend on the processing

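*Gad1*, *Abat*, *Aldh5a1*, *Gabbr1* and *Gabbr2* kept their direction under every alternative that could fit them. The fit as reported called 4845 transcripts, 2 members and 10 list genes. With a minimum mean of 1 RPKM the first 2 were 2593 and 1, by the smaller number tested. Library size without the 10 highest gave 16 list genes, voom 7383 transcripts and 19 list genes, and voom with the replicate block 9999, 4 members and 24. Leaving out 1 library gave 790 to 1732 transcripts, 0 to 1 members and 2 to 5 list genes, with a lone library assumed to vary like the other group; without the second 16.8 mM library the counts were 790, 0 and 2. Of the 10 list calls, 7 held with no minimum (*Nlgn2*, *Trak1* and *Gls2* were lost) and 9 with 1 entry per gene (without *Nlgn2*). *Ins2*, called higher, had a change of 0 under quantile normalization, which fixes the highest entry.

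*Abat* passed with 0.1 RPKM required in every library (0.32), quantile normalization (0.44), median centring (0.43), library size without the 10 highest (0.40), robust empirical Bayes (0.32), voom (0.39) and voom with the block (0.39). *Aldh5a1* did not pass under quantile normalization (−0.29), median centring (−0.28) or without a library (−0.43 to −0.35), nor did *Gabbr2* without the second 16.8 mM library (0.77, within a range of 0.74 to 0.78 when any library was left out). Leaving out a library moved the log2 ratio of mean RPKM of *Gad2* from −0.85 to 0.026 and that of *Gabra4* between −0.87 and −0.38, and with no minimum that of *Gabra4* on the log2(RPKM + 0.1) scale was −0.052. The cause of these changes was not tested, save where stated.

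The labels number the replicates but do not say that a number marks a batch. The differences between replicates 1 and 2 correlated at 0.13 between the groups across transcripts, with 2 pairs only. The fit with the replicate block called 6950 transcripts and 18 list genes, and with voom it also passed *Gad1* (−0.18; voom adjusted p = 0.0302), so 4 members; the limma fit with the block did not pass *Gad1* (adjusted p = 0.116). *Abat* has no entry with other values to try. At about 25 reads or fewer in any library, *Gad2* and the transporters allow no statement on change.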
